A study of Mus musculus with 10 samples.

Results

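Chromatin accessibility was followed across the Nanog locus, the stretch of mouse chromosome 6 that holds Nanog, Dppa3, Gdf3, Slc2a3 and Apobec1, while fibroblasts were reprogrammed towards pluripotency. The locus was taken from 20 kb before the first to 20 kb after the last of the 5 genes (chr6:122557792-122822363, mm10, 264.6 kb), so that distal elements between the genes were included. Peaks of all 10 libraries that shared at least 1 base were merged into regions, and 64 of the 208851 regions of the genome lay in the locus. Of these, 57 lay within 20 kb of one of the 5 genes and the other 7 in the long gap between Dppa3 and Nanog. Each region is named by the distance of its middle from the Nanog start, negative on the Dppa3 side and positive on the Slc2a3 side.

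Nanog is a homeodomain transcription factor of the pluripotency network, and Dppa3 (Stella) is a maternal factor that protects the DNA of the early embryo from loss of methylation. Gdf3 is a secreted ligand of the TGF-beta family, Slc2a3 is the glucose transporter GLUT3, and Apobec1 is a cytidine deaminase that edits RNA. ATAC-seq inserts adapters where DNA is free of nucleosomes, so that a peak marks an open promoter or a candidate enhancer. Enhancers upstream of Nanog and between Nanog and Dppa3 are known from embryonic stem cells to act on Nanog, and in part on Dppa3.

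The study assayed 5 stages with 2 libraries each, from 50000 cells per reaction, all with the same batch label. MEF were unsorted mouse embryonic fibroblasts (C57BL/6 x 129) with a polycistronic OKSM cassette (Oct4, Klf4, Sox2, Myc) at Col1a1 and M2rtTA at Rosa26, grown without doxycycline. DAY3, DAY6 and DAY9 were the same kind of cells after 3, 6 and 9 days in embryonic stem cell medium with doxycycline at 1 µg/ml and ascorbic acid at 50 µg/ml. DAY3 cells were unsorted, while DAY6 and DAY9 cells were sorted for SSEA1, so that sorting and time cannot be told apart between DAY3 and DAY6. ESC were unsorted V6.5 embryonic stem cells of the same strain mix, without the cassette, kept on irradiated feeder cells. ESC and MEF therefore differed in genotype, medium and feeders as well as in stage.

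Sequence 5′ to 3′ was at hand for the 250 bases before the start of 2 of the 5 genes (RefSeq, GRCm38.p6), Nanog and Apobec1. They are shown because the Nanog start opened late and the Apobec1 start was open throughout. Capitals mark the matches found on either strand for the motifs searched. The table lists 2 Nanog starts, at 122707489 and 122707565, and the sequence shown ends at the first.
Nanog, chr6:122707239-122707488, plus strand: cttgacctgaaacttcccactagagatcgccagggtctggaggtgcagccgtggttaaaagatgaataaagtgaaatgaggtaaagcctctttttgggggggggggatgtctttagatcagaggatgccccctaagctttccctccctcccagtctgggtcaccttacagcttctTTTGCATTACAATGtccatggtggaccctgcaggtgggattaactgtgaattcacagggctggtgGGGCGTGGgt
Apobec1, chr6:122602445-122602694, minus strand: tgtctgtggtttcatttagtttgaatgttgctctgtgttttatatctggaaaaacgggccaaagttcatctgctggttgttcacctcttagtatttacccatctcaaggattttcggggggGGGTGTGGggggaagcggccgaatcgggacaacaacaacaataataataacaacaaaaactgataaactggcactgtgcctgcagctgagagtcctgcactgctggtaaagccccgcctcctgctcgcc

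In the Nanog sequence, an octamer-type and a Sox-type sequence, TTTGCAT and ACAATG separated by 1 base, matched 75 to 62 bases before the start. The same letters were found in 2 of 32851 promoters of this length (0.00609%), both of them Nanog entries. GGGCGTGG, a KLF-type GC box, matched 10 to 3 bases before the start and occurred in 4.79% of promoters. Both patterns were added after the sequence had been read. The other 6 motifs searched, given with the share of promoters that hold each, had no match in this window. They were the octamer ATGCNAAT (2.86%), Sox CATTGTT (3.29%), Klf CCNCACCC (14.9%), Esrrb TCAAGGTCA (0.387%), AP-1 TGANTCA (6.75%) and a CTCF core (2.82%). Apobec1 had 1 match, to the Klf pattern, 129 to 122 bases before its start. The Nanog sequence holds 3 CpG dinucleotides, and 29.0% of promoters have fewer. Apobec1 holds 7 (53.7% have fewer), and Foxj2, the gene at the far edge of the locus, holds 36 (97.4% have fewer), against a median of 6.

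Each peak carries the authors' fold, the summit pileup of reads over the pileup expected locally, and the authors' −log10 p. The lists held 45497 to 88980 peaks, and every listed peak had a −log10 p of at least 5. The pileup expected from background ranged from 2.327 in DAY6 replicate 2 to 8.322 in MEF replicate 2, so the smallest fold a list could hold on bare background ran from 2.57 to 3.61. Because the expected pileup differs between libraries and places, a relative height was also computed: the recovered summit pileup divided by the median summit pileup of the 15359 regions open in all 10 libraries, in the same library. This measure was chosen after the peaks had been seen. The DAY3 libraries differed from each other by 1.33 times counting noise and the DAY9 libraries by 1.42 times, against 3.61 to 8.16 times in the other pairs. Each of these pairs was therefore averaged and counted as n = 1, while MEF, DAY6 and ESC have n = 2. The labels do not say whether libraries came from separate cultures, so the spread given may be technical. No p-value is given, since 2 libraries against 2 cannot go below an exact two-sided p of 0.333. In bulk samples, more cells with an open site and a more open site per cell cannot be told apart.

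In the full lists, ESC libraries had a peak at the most regions of the locus and MEF and DAY3 libraries at the fewest. MEF libraries had a peak at 24 and 21 of the 64 regions, DAY3 at 20 and 21, DAY6 at 31 and 25, DAY9 at 32 and 35, and ESC at 45 and 42. The means were 22.5 ± 2.12 regions in MEF (SD, n = 2), 20.5 in DAY3, 28.0 ± 4.24 in DAY6 (SD, n = 2), 33.5 in DAY9 and 43.5 ± 2.12 in ESC (SD, n = 2). Both ESC libraries were above all 8 others, and 1 of the 2 MEF libraries lay within the DAY3 range. The ESC lists were also the longest. With every list cut to the length of the shortest, keeping the highest scores, 44 regions remained, and MEF libraries then covered 20 and 18 of them, DAY3 libraries 20 and 21, DAY6 libraries 22 and 22, DAY9 libraries 24 and 24, and ESC libraries 23 and 25. MEF was still below DAY6, DAY9 and ESC, but DAY9 and ESC overlapped. Per 10000 peaks of a list, the locus held 3.25 ± 0.04 in MEF (SD, n = 2) and 5.12 ± 0.26 in ESC (SD, n = 2), with 4.61, 4.75 ± 0.23 (SD, n = 2) and 4.29 at DAY3, DAY6 and DAY9.

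**Figure D1:**
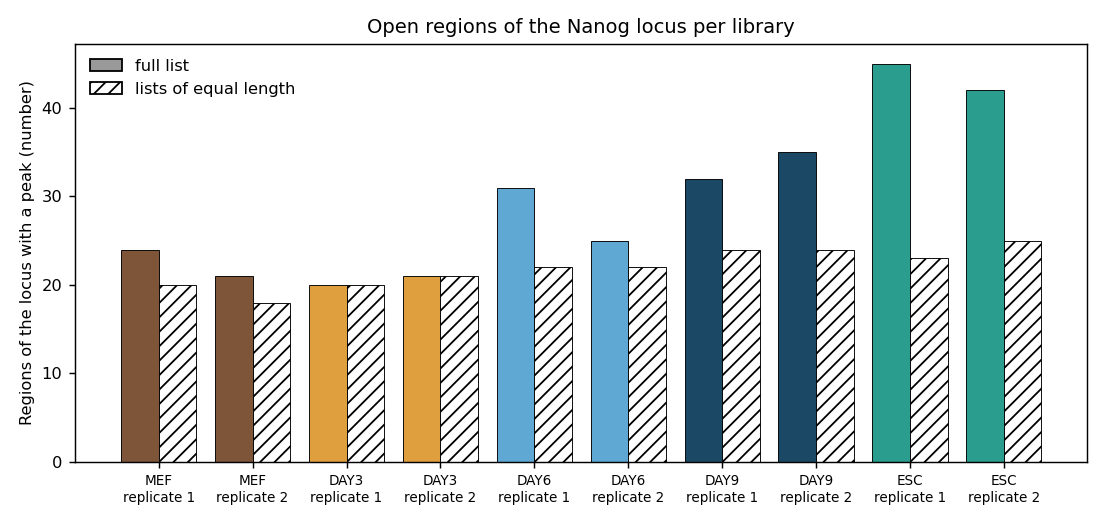
Number of regions of the locus with a peak (vertical axis) in each of the 10 libraries (horizontal axis), from the full lists (filled bars) and from lists cut to equal length (hatched bars). The full lists run from 20 regions in a DAY3 library to 45 in an ESC library, and the equal lists from 18 to 25.

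A peak in both libraries of a stage was found at 16 regions in MEF (25.0% of the 64, against 22.1% of all regions of the genome), 16 in DAY3 (25.0% against 16.9%), 21 in DAY6 (32.8% against 21.7%), 30 in DAY9 (46.9% against 30.8%) and 34 in ESC (53.1% against 28.2%). In the lists of equal length these counts were 14, 16, 19, 22 and 16 from MEF to ESC, so ESC was below DAY6 and DAY9. A region called open below had a peak in both libraries of the stage. Lists that differ little meet this rule more easily, and the DAY3 and DAY9 pairs differed least. The rule was thus not equally strict between stages. Regions with any listed peak numbered 29, 25, 35, 37 and 53 from MEF to ESC. Calls of open, gained, lost and first open carry this limit, as do the genome-wide shares given with them. Its effect on the order of stages was not tested. Of the 64 regions, 9 had a peak in all 10 libraries (14.1%, against 7.35% genome-wide). A further 15 had a peak in 1 library (23.4%, against 37.9%), of which 12 were in an ESC library, 2 in a MEF library and 1 in a DAY6 library. No stage had both libraries at 20 regions, these 15 included. The regions were 226 to 1697 bases wide with a median of 617, and 31 of them overlapped the span of one of the 5 genes, 5 that of another annotated gene, and 28 no gene. The gene table gives gene spans without exons, so exons and introns are not told apart here.

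**Figure D2:**
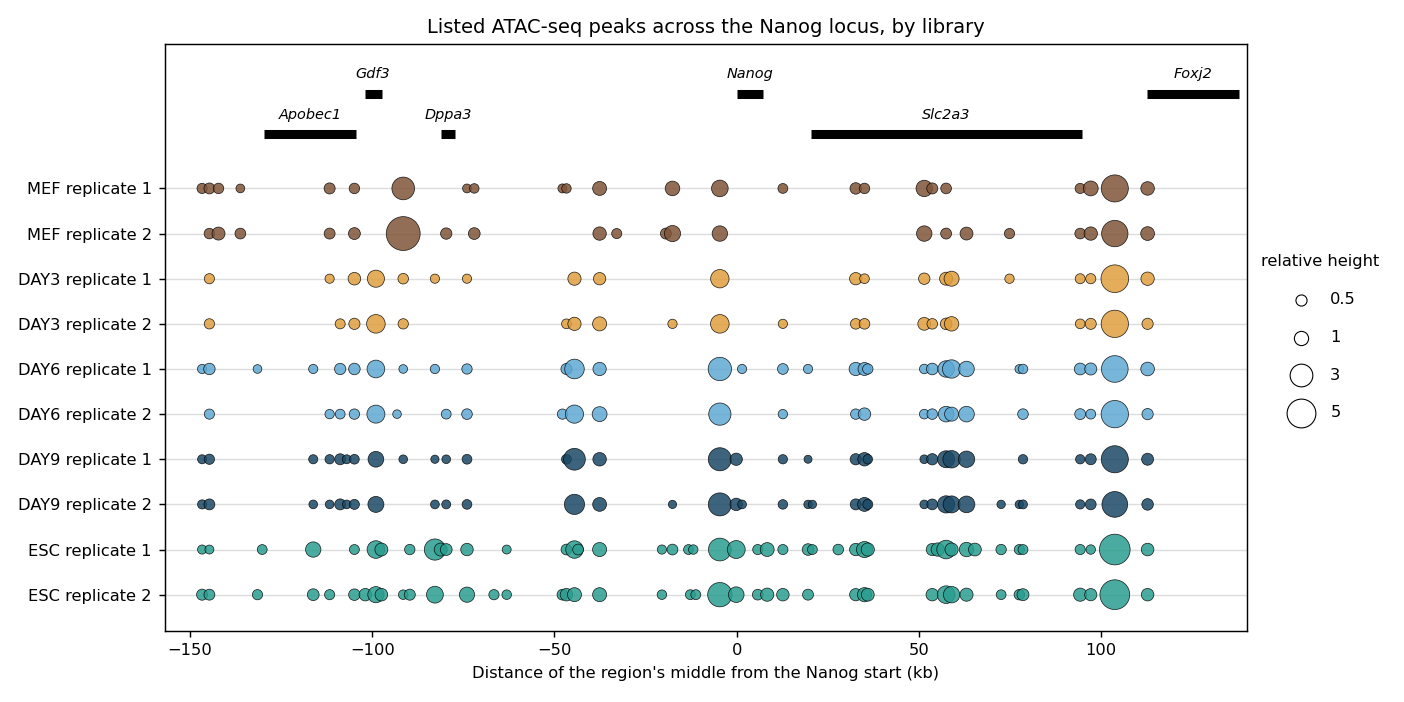
Map of the locus, with the distance of each region's middle from the Nanog start in kb (horizontal axis) and 1 row per library. A circle stands for a listed peak and a larger circle for a larger relative height, and black bars are gene spans from the RefSeq table. The region at -99.0 kb has circles from DAY3 on, the one at the Nanog start from DAY9 on, and the large circles at -91.5 kb are in MEF.

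The Nanog start opened late. The region over it (-0.1 kb, chr6:122707044-122707688) had no peak in MEF, DAY3 or DAY6, and a fold of 2.25 and 2.42 in the DAY9 libraries and 5.32 and 3.14 in ESC. Its relative height was 0.67 and 0.70 in DAY9 and 1.76 and 1.27 in ESC, so that both ESC libraries were above both DAY9 libraries. Within its own list, the DAY9 fold stood at percentiles 1.3 and 2.4, near the bottom, and the ESC fold at 51.7 and 18.7. The low DAY9 fold came with a high local expected pileup of 51.96 and 50.62, 7.09 and 6.87 times the library's background, against 118 and 124 reads at the summit. A peak of the DAY9 height, scaled to the height of any of the 6 earlier libraries, would have had a −log10 p of 5.8 to 8.8 and would have been listed. The 2 short regions inside the gene were weaker. The one at +1.5 kb had a peak in 1 DAY6 and 1 DAY9 library, and the one at +5.8 kb only in ESC, with folds of 2.50 and 2.40.

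The region 4.6 kb upstream of Nanog (chr6:122702272-122703538) was open in all 10 libraries, fibroblasts included. The MEF libraries had relative heights of 1.48 and 1.23, the DAY3 libraries 1.87 and 1.92, those of DAY6 3.19 and 2.87, those of DAY9 3.11 and 3.09, and those of ESC 3.01 and 3.49. The libraries fell into a low set of MEF and DAY3 and a high set of DAY6, DAY9 and ESC that did not overlap. The mean was 1.35 ± 0.18 in MEF (SD, n = 2) and 3.25 ± 0.34 in ESC (SD, n = 2), a ratio of 2.40. The authors' fold gives another order, 13.46 and 7.31 in MEF and 8.61 and 8.48 in ESC, because the expected pileup at this place was 7.32 and 10.22 in MEF and 22.58 and 29.20 in ESC. By fold, then, the ESC libraries lay between the 2 MEF libraries, and the difference in height is between the pileups of reads, not between the folds.

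Beyond the 3′ end of Nanog, 2 regions stood apart in time. The region at +8.4 kb (chr6:122715423-122716379) had a peak only in ESC, with folds of 6.11 and 4.18 and relative heights of 0.94 and 0.82. Scaled to each of the 8 other libraries it would have had a −log10 p of 16.8 to 76.9, past the 5 that every listed peak reached. The region at +12.7 kb had a peak in 1 MEF library, 1 DAY3 library and all 6 later ones, with folds of 3.03 to 8.08. Its height was 0.25 to 0.45 in 7 of the 8 libraries with a peak and 0.71 in ESC replicate 2.

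In the gap between Nanog and Dppa3, 2 elements of similar size had different histories. The region at -44.5 kb (chr6:122662551-122663450, 36.6 kb from Dppa3) had no peak in either MEF library. The DAY3 libraries had relative heights of 0.82 and 0.83, those of DAY6 2.16 and 1.82, those of DAY9 2.73 and 2.3, and those of ESC 1.66 and 0.96. The stage means were 0.83, 1.99 ± 0.24 (SD, n = 2), 2.52 and 1.31 ± 0.49 (SD, n = 2), highest at DAY9, and both ESC libraries were below all 4 DAY6 and DAY9 libraries. By fold the DAY9 libraries were again highest, at 15.73 and 14.57, above DAY6 at 12.10 and 11.60, while ESC at 8.26 and 4.69 overlapped with DAY3 at 6.88 and 6.72. The DAY3 peak scaled to the MEF libraries would have had a −log10 p of 25.2 to 32.9. The region at -37.6 kb (chr6:122669303-122670562, 43.5 kb from Dppa3) was open in all 10 libraries with a relative height of 0.68 to 1.12. Its mean was 0.90 ± 0.07 in MEF and 0.96 ± 0.01 in ESC (SD, n = 2 each), a difference smaller than the range between libraries.

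Apart from a region at -17.6 kb that was tall in MEF, the rest of the gap held weaker regions. The region at -46.7 kb had a peak in both ESC libraries (folds 2.63 and 3.96) and in 1 library of each other stage. The region at -20.5 kb had a peak only in ESC (3.09 and 3.11). At -17.6 kb, inside the 20 kb flank of Nanog, the MEF libraries had folds of 9.67 and 7.82 and relative heights of 1.07 and 1.38. Single libraries of DAY3, DAY9 and ESC had a peak there, with heights of 0.26, 0.14 and 0.45, all below both MEF libraries. The other regions between -48 kb and Nanog (-47.8, -43.5, -32.9, -19.4, -13.2, -12.7, -11.9 and -11.2 kb) had a peak in both libraries of no stage.

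**Figure D3:**
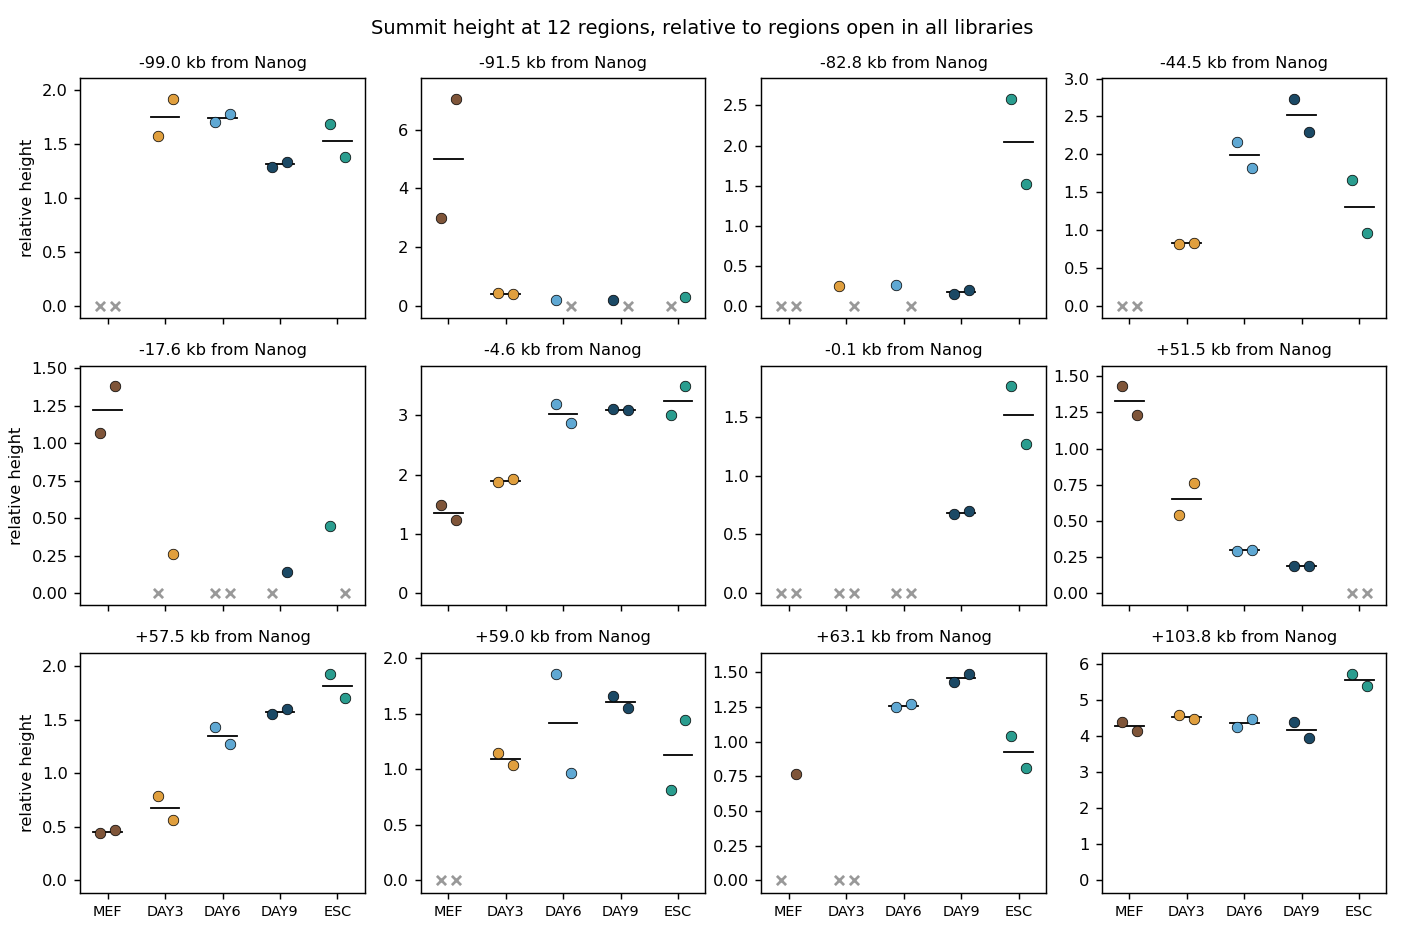
Relative height (vertical axis, a ratio to the median summit of regions open in all libraries) by stage (horizontal axis) at the 12 regions of the locus with the largest range of heights over the libraries, an unlisted peak counted as 0. Points are libraries, crosses at 0 are libraries with no listed peak, and bars are the mean where both libraries had a peak. The vertical scale differs between panels. The -44.5 kb panel is highest at DAY9, the -0.1 kb panel starts at DAY9 and the -91.5 kb panel is highest in MEF.

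Just upstream of Dppa3, a region that was weak or unlisted through DAY9 was strong in ESC. It lay 1.7 kb before the start of the gene (-82.8 kb, chr6:122624400-122624959). The region had no peak in MEF, 1 in a DAY3 library, 1 in a DAY6 library, and folds of 3.00 and 4.15 in DAY9 and 12.39 and 8.03 in ESC. The relative height was 0.25 and 0.26 in the single DAY3 and DAY6 libraries, and 0.14 and 0.20 at DAY9. In ESC it was 2.58 and 1.52, above all other libraries. Scaled to the earlier libraries that lacked it, the DAY9 peak would have had a −log10 p of 0.5 to 5.5, so an equally weak peak could have gone unlisted before. The Dppa3 start itself had a peak in ESC replicate 1 alone (-81.2 kb, fold 4.05). A region 1.3 kb past the start (-79.7 kb) was open at DAY9, with heights of 0.19 and 0.22. Single libraries of MEF, DAY6 and ESC also had a peak there, with heights of 0.53, 0.33 and 0.60, all above both DAY9 libraries.

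Downstream of Dppa3, the region 7.1 kb past its start (-74.0 kb, chr6:122633135-122633842) had a peak in 1 MEF library, 1 DAY3 library and all 6 later ones. Its height was 0.21, 0.25, 0.39 and 0.43, 0.32 and 0.31, and 0.70 and 1.19 from MEF to ESC, both ESC libraries being above the rest. A region at -63.1 kb over the pseudogene Gm8460 was open only in ESC, with folds of 3.57 and 2.90. At -72.0 kb the only peaks were in MEF, with folds of 5.21 and 4.29.

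The tallest difference of the locus in the other direction lay between Gdf3 and Dppa3. The region at -91.5 kb (chr6:122615698-122616253, 10.4 kb upstream of Dppa3) had folds of 24.83 and 22.73 in the MEF libraries. DAY3 gave 4.92 and 4.63, single libraries of DAY6 and DAY9 3.59 and 4.08, and ESC replicate 2 a fold of 2.91. The MEF folds were the highest in the locus in any library. The relative height was 2.99 and 7.05 in MEF. It was 0.42 and 0.39 in DAY3, and 0.19 to 0.29 where a later library had a peak. Both MEF libraries were above all others, but differed from each other by more than the later libraries' whole range. Beside it, at -89.7 kb, a region was open only in ESC, with folds of 4.95 and 5.04 and heights of 0.40 and 0.49.

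At Gdf3, an element within the gene was open from DAY3 on, while the region over the start had a peak only in ESC. The region at -99.0 kb (chr6:122607723-122609254) had no peak in MEF. The DAY3 libraries had relative heights of 1.58 and 1.92, those of DAY6 1.71 and 1.78, those of DAY9 1.29 and 1.34, and those of ESC 1.69 and 1.38. From DAY3 on the stages overlapped, except that both DAY9 libraries were below the rest. Its DAY3 peak scaled to the MEF libraries would have had a −log10 p of 75.0 to 110.7. The region over the Gdf3 start (-97.5 kb) had ESC folds of 3.57 and 2.77 and heights of 0.78 and 0.73, and scaled to the 8 other libraries it would have reached a −log10 p of 8.9 to 36.6. Within 1 kb of the start, 1 DAY6 library and both DAY9 libraries also had a peak, which belongs to the -99.0 kb region. A region at -101.9 kb in Gdf3 had a peak in ESC replicate 2 alone.

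Apobec1 was open at its start in every library. The region there (-104.9 kb) had folds of 3.52 to 6.18 and relative heights of 0.31 to 0.72, with means of 0.51 ± 0.14 in MEF and 0.45 ± 0.15 in ESC (SD, n = 2 each), which overlapped. Inside the gene, the region at -116.2 kb had no peak in MEF or DAY3, and heights of 0.25 in 1 DAY6 library, 0.24 and 0.19 in DAY9, and 1.21 and 0.60 in ESC. The regions at -108.8 kb (DAY6 and DAY9) and -107.0 kb (DAY9) were open in intermediate stages and had no peak in ESC or MEF. At -107.0 kb the DAY9 folds were 2.68 and 2.31 and the heights 0.22 and 0.19. Scaled to the 6 earlier libraries, that peak would have had a −log10 p of 1.1 to 4.0 and would not have been listed. An equal peak could also have gone unlisted in ESC, whose summits were lower than those of DAY9. The region at -111.7 kb had a peak in both MEF libraries (folds 8.61 and 3.43), both DAY9 libraries and 1 library of each other stage. Farther upstream, the regions at -142.2 and -136.2 kb had peaks only in MEF, with folds of 5.37 and 5.69 and of 3.62 and 3.33.

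Slc2a3 held most of the regions on the far side of Nanog. The span in the gene table (chr6:122727809-122802363) includes predicted transcripts, so that its ends may lie outside the gene as usually drawn, and 18 regions overlapped it. The region at +57.5 kb (chr6:122764387-122765565) was open in all 10 libraries. The MEF libraries had relative heights of 0.44 and 0.47, the DAY3 libraries 0.79 and 0.56, those of DAY6 1.43 and 1.27, those of DAY9 1.55 and 1.60, and those of ESC 1.93 and 1.70. Each later stage was above the one before without overlap, from 0.45 ± 0.02 in MEF to 1.81 ± 0.16 in ESC (SD, n = 2 each), a ratio of 3.98. By fold the groups overlapped, with 5.01 and 3.38 in MEF against 7.03 and 4.66 in ESC. Of the 9 regions open in all 10 libraries, this one and the one at -4.6 kb had both ESC libraries at least 1.5 times above both MEF libraries in height, as did 9.32% of such regions genome-wide. None of the 9 had both MEF libraries at least 1.5 times above both ESC libraries, as 8.39% did genome-wide.

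The neighbours of the +57.5 kb region at +59.0 and +63.1 kb opened during reprogramming. At +59.0 kb (chr6:122766069-122766854) MEF had no peak. The DAY3 libraries had relative heights of 1.15 and 1.04, those of DAY6 1.86 and 0.97, those of DAY9 1.66 and 1.55, and those of ESC 0.81 and 1.44. From DAY3 on the stages overlapped, except that both DAY9 libraries were above both DAY3 and both ESC libraries. At +63.1 kb, MEF replicate 2 had a peak (0.77), DAY3 had none, and the heights were 1.25 and 1.27 at DAY6 and 1.43 and 1.49 at DAY9. Those of ESC were 1.04 and 0.81, both below the 4 libraries of DAY6 and DAY9.

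A region of Slc2a3 was lower at each stage than at the one before, from MEF to DAY9. At +51.5 kb (chr6:122758607-122759378) the MEF libraries had relative heights of 1.43 and 1.23, the DAY3 libraries 0.54 and 0.76, those of DAY6 0.29 and 0.30 and those of DAY9 0.19 and 0.19. ESC had no peak. The smallest pileup listed on bare background was 14 and 18 reads in the ESC libraries. Their medians at regions open in all libraries were 67 and 73, against 176 in DAY9. A peak of the DAY9 height could therefore have gone unlisted in ESC. The first 4 stages did not overlap. Fold was 12.92 and 8.13 in MEF and 3.45 and 3.39 in DAY9, with the DAY3 and DAY6 libraries between them at 3.66 to 6.54.

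The other regions of Slc2a3 were of moderate height. Those at +32.7 and +35.1 kb had a peak in every library but MEF replicate 2, and the second was highest in ESC, at 1.36 and 1.00 against 0.31 to 0.95 elsewhere. The +36.0 and +19.6 kb regions were open in DAY9 and ESC, with 1 DAY6 library. At +36.0 kb the heights were 0.29 and 0.35 in DAY9 and 0.82 and 0.77 in ESC, and at +19.6 kb they were 0.12 and 0.16 against 0.57 and 0.47. The +53.7 and +78.6 kb regions were open from DAY6 on, with folds of 2.29 to 2.85 and of 4.74 to 7.58. The first of them also had a peak in MEF replicate 1, at its highest fold of 3.56, and in DAY3 replicate 2, at 2.57. The +72.6 and +77.6 kb regions were open in ESC, with a fold of at most 5.67. The other 5 regions over the gene (+20.8, +27.9, +55.2, +65.4 and +74.9 kb) had a peak in both libraries of no stage.

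The far end of the locus was open throughout. The region at +94.3 kb, at the Slc2a3 start as the table gives it, had relative heights of 0.25 to 0.82. The region at +103.8 kb was the tallest with a peak in every library, with folds of 11.60 to 15.64 and heights of 3.93 to 5.72. Its mean height was 4.27 ± 0.17 in MEF and 5.54 ± 0.25 in ESC (SD, n = 2 each), and both ESC libraries were above the other 8. At +97.2 kb the mean was 0.98 ± 0.19 in MEF and 0.47 ± 0.26 in ESC (SD, n = 2 each), and both MEF libraries were above all others. The region over the start of Foxj2, a forkhead transcription factor, was the last inside the edge (+112.8 kb, folds of 4.31 to 9.71). Just outside that edge, the region at +117.9 kb had folds of 2.59 and 2.96 in DAY6.

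Between MEF and ESC, more regions of the locus were gained than lost. A region counted as gained had a peak in both ESC libraries and neither MEF library, and as lost in the opposite case. By this rule 17 of 64 were gained (26.6%, against 15.9% of all regions) and 4 lost (6.25%, against 11.1%). The lost ones were those at -142.2, -136.2, -72.0 and +51.5 kb. At -91.5 and -17.6 kb both MEF libraries were above all others in height, but 1 ESC library had a peak, so neither counted as lost. Likewise, regions with a peak in 1 MEF library, such as that at +35.1 kb, did not count as gained. Without ESC replicate 2 the gained count was 26, and without MEF replicate 1 the lost count was 7. A stage with 1 library left meets the rule more easily, so these higher counts follow from the rule itself. In the lists of equal length, 9 of 44 were gained (20.5%, against 12.9%) and 5 lost (11.4%, against 12.9%).

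Step by step, the calls were few. From MEF to DAY3, 3 regions were gained (4.69%, against 5.43%), at -99.0, -44.5 and +59.0 kb, and 3 lost (4.69%, against 10.4%). From DAY3 to DAY6, 2 were gained (3.12%, against 5.29%) and 0 lost (against 1.50%). From DAY6 to DAY9, again 2 were gained (3.12%, against 5.39%), 1 of them the Nanog start, and 0 lost (against 0.956%). From DAY9 to ESC, 6 were gained (9.38%, against 9.10%) and 3 lost (4.69%, against 9.24%). Of the lost ones, those at -107.0 and +51.5 kb had DAY9 heights of 0.19 to 0.22, and equal peaks could have gone unlisted in ESC. The shares gained in single steps were near or under those of all regions. With 1 library left out, its stage has to meet a looser rule, so a higher count follows from the rule itself. Leaving out DAY6 replicate 2 gave 9 gained from DAY3 to DAY6 and 4 from DAY6 to DAY9. For DAY6 replicate 1 the counts were 5 and 7. Without DAY3 replicate 2, 5 were gained from DAY3 to DAY6, and without DAY9 replicate 1, 5 from DAY6 to DAY9. Without MEF replicate 1 the step from MEF to DAY3 gave 5 gained and 7 lost, and without MEF replicate 2 it gave 5 lost. Without ESC replicates 1 and 2 in turn, 12 and 14 were gained from DAY9 to ESC. Steps that share a stage also share its libraries.

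Of the 34 regions open in ESC, 9 were already open in MEF (26.5%, against 32.7% of the 58800 regions open in ESC genome-wide). A further 5 were first open at DAY3 (14.7%, against 7.91%), 5 at DAY6 (14.7%, against 11.5%), 6 at DAY9 (17.6%, against 11.0%) and 9 in ESC (26.5%, against 36.9%). By this rule and in the full lists, the locus had larger shares at the 3 intermediate stages and smaller ones at both ends. The counts were small and moved with the setting. From MEF to ESC they were 4, 2, 4, 0 and 5 with the stronger 50% of each list. With at least 1 library of a stage they were 22, 4, 6, 3 and 18. Genome-wide shares are not given for these settings. The 9 first open in ESC lay at -97.5, -89.7, -63.1, -46.7, -20.5, +5.8, +8.4, +72.6 and +77.6 kb, the Gdf3 start among them. Some had a peak in single earlier libraries. These were -46.7 kb (1 library of each earlier stage), +72.6 kb (1 DAY9 library) and +77.6 kb (1 DAY6 and 1 DAY9 library). Without MEF replicate 2, 16 were first open in MEF, 3 at DAY3 and 2 at DAY6. Without DAY6 replicate 2, 12 were first open at DAY6 and 1 at DAY9, without DAY3 replicate 1, 8 at DAY3 and 3 at DAY6, and without ESC replicates 1 and 2 in turn, 15 and 18 in ESC.

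**Figure D4:**
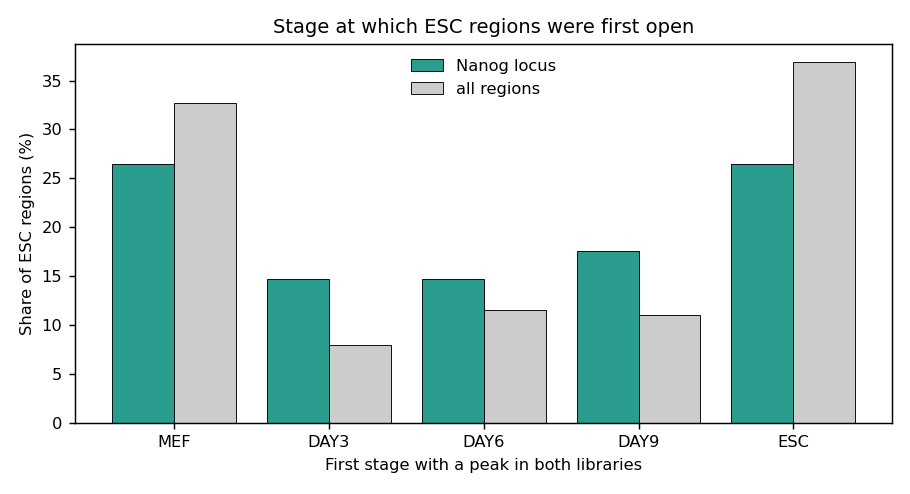
Share in percent (vertical axis) of regions open in ESC whose first stage with a peak in both libraries was MEF, DAY3, DAY6, DAY9 or ESC (horizontal axis). Teal bars are the 34 regions of the locus and grey bars all 58800 such regions. In these full lists the locus bars are higher at DAY3, DAY6 and DAY9 (14.7%, 14.7% and 17.6%) and lower at MEF and ESC (26.5% each).

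Depth could bear on part of this order. The 28 regions of the locus first open after MEF were each scaled to the median height of every earlier library that lacked the peak, and 13 would have been listed in all of these libraries. That was so for 4 of 5 regions first open at DAY3, 3 of 6 at DAY6, 1 of 8 at DAY9 and 5 of 9 in ESC. The 1 region of DAY9 was the Nanog start. DAY9 had the tallest summits, with a median of 176 reads at regions open in all libraries against 60 to 80 in the other 8 libraries. For the other 7 regions first open at DAY9, a peak of the same relative height could have gone unlisted in at least 1 earlier library. Heights were scaled to earlier libraries only, so the absence of a peak at a later stage was not examined in this way.

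Most other genes of the pluripotency network had an open start by DAY6, when Nanog had none. Of 24 listed genes, with the cassette's own genes left out, 8 had a peak within 1 kb of a start in both MEF libraries (33.3%, against 45.0% of all gene starts), 11 in DAY3 (45.8%, against 43.9%), 19 in DAY6 (79.2%, against 47.6%), 20 in DAY9 (83.3%, against 51.2%) and 24 in ESC (100%, against 50.5%). For 10 of the 24, either end of the gene was taken as the start, since the table gives no strand. The shares of all gene starts are of genes with a known strand only. Tdgf1 and Nr0b1 had no peak before DAY6 and both libraries from DAY6 on, 1 stage earlier than Nanog. Sall4 had the same pattern, but with either end of the gene taken as its start. Prdm14, Dppa2 and Dppa4 had a peak only in ESC, and Tcl1 in 1 DAY9 library and both ESC libraries. Of the 5 genes of the locus, 2 (Slc2a3 and Apobec1) had both libraries in MEF. In DAY9 and ESC 4 did (Gdf3 at DAY9 through its -99.0 kb region), Dppa3 being the exception with 1 library at each. The Slc2a3 start counted here, at +94.3 kb, is the end of a span that includes predicted transcripts. It may not be the usual start of the gene, so the Slc2a3 count holds for that end only.

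ESC were unsorted cells kept on feeders, so markers of other cell types were counted at gene starts. Open starts made up 45.0%, 43.9%, 47.6%, 51.2% and 50.5%, from MEF to ESC, of the 27025 genes with a start of known strand. Either end of the gene was taken as the start for 5 of 12 fibroblast, 4 of 10 pluripotent, 2 of 5 epithelial and 1 of 3 blood markers. A peak at the 3′ end thus counts for these markers but not for the share of all genes. Of 12 fibroblast marker starts, 11 were open in MEF, 9 in DAY3, 8 in DAY6, 7 in DAY9 and 8 in ESC (91.7%, 75.0%, 66.7%, 58.3% and 66.7%). Postn and Col3a1 were open only in MEF. Twist1, Col1a1, Col1a2, Zeb2, Snai2 and Fn1 had a peak in all 10 libraries. Prrx1 was open in every stage but DAY9, where it had no peak. Of 10 pluripotent markers 2, 3, 8, 9 and 10 were open from MEF to ESC, and of 5 epithelial markers 0, 2, 5, 4 and 5. All 10 pluripotent markers are among the 24 genes counted above, so theirs is not a separate count. None of 3 blood markers had a peak in any library. The part of feeder cells in the ESC values of the locus was not tested. At the MEF element at -91.5 kb, the height in ESC was 0.29 in 1 library, with no peak in the other.

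Among 27022 candidate genes outside the locus, 125 had the Nanog start's presence in the same 4 libraries only. The genes most like it were ranked by the mean absolute difference, over the 10 libraries, in the percentile by fold of the strongest peak at the start, taken as 0 where none was listed. The 5 nearest were Gm33345 (0.49 percentile points), Gm32882 (0.80), Prr19 (0.97), Gstp2 (1.09) and Pdzk1 (1.18). Gm33345, Gm32882 and Pdzk1 had no peak in DAY9, and Prr19 and Gstp2 had one in 1 DAY9 library each. Their ESC percentiles were 50.7 to 56.9 in replicate 1 and 12.5 to 22.0 in replicate 2, around the 51.7 and 18.7 of Nanog. The Nanog start differed from all 5 by its weak peak in both DAY9 libraries, so none of the 5 was among the 125. Its DAY9 percentiles of 1.3 and 2.4 lie near the 0 of an unlisted peak. The ranking therefore rested mostly on the ESC percentiles.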

How the data were processed

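ATAC-seq peak lists of 10 libraries were used, with 2 each of MEF, DAY3, DAY6, DAY9 and ESC. The submitters' processing notes name Bowtie2 2.3.2, MACS2 2.1.1, deepTools 2.3.6 and mm10. Their roles, settings, peak filters and treatment of reads with several matches are not given in the sources used here. The values deposited by the authors are a score, a fold (ratio of pileups) and −log10 p and q for each peak, as in MACS narrowPeak columns. They carry no summit position, so 500-base windows were centred on the strongest peak's middle.

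Peaks sharing at least 1 base were merged into regions. Summit and expected pileups were recovered from fold and −log10 p, to within 0.01, with a series for values above 300 (97.2% of 6507 such peaks were recovered). Gene positions came from RefSeq (GRCm38.p6), with the strands of Dppa3, Gdf3 and Slc2a3 from general knowledge. The members, lists and measures were chosen with earlier results of these data known. Named were all 5 genes, other genes overlapping the locus, regions at member starts or open in both ESC or both MEF libraries, those at the edges, and the 5 genes most like Nanog. Other regions were named after their values were seen. All libraries carry the same batch label. Scripts (Python 3.11.15, numpy 2.4.6, pandas 2.3.3, scipy 1.17.1) were tested on simulated data. An item of the locus is not reported here.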

Additional observations from a re-analysis of the deposited data

How the results depend on the processing

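Peak presence depends on list length, depth and the rule of both libraries, and no alternative carries a test. No paired analysis was possible because the results come from no test. Of the counts that answer a comparison, 116 moved by less than 1.5 times under the other alternatives and 49 by more, and when 1 library was left out 223 and 27. Of single libraries and gene starts, 102 and 23 did so, and 48 and 2 when 1 library was left out.

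With the stronger 50% of each list, regions open by stage were 10, 9, 13, 16 and 15 from MEF to ESC. Gained regions were 8 from MEF to ESC, 4 from DAY3 to DAY6, 1 from DAY6 to DAY9 and 3 from DAY9 to ESC, and 1 was lost from DAY3 to DAY6. ESC regions first open in MEF, DAY3, DAY9 and ESC were 4, 2, 0 and 5, and 7 pluripotency genes were open at DAY3. The Nanog start was then open in 1 stage. With equal numbers of peaks, 14, 16, 19, 22 and 16 regions were open from MEF to ESC, ESC being below DAY6 and DAY9. Then 9 were gained from MEF to ESC and 3 from DAY9 to ESC, and 1 was lost from DAY3 to DAY6. The first stages of ESC regions from MEF to ESC were then 5, 3, 2, 2 and 4. Where peaks had to cover 50% of the region, DAY3 to DAY6 gave 4 gained and 1 lost, DAY6 to DAY9 gave 5 gained, and 4 ESC regions were first open in MEF.

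With at least 1 library of a stage, 29, 25, 35 and 53 regions were open in MEF, DAY3, DAY6 and ESC. From MEF to ESC 31 were gained and 7 lost, from MEF to DAY3 5 and 9, from DAY3 to DAY6 12 and 2, from DAY6 to DAY9 5 and 3, and 20 were gained from DAY9 to ESC. ESC regions first open in MEF, DAY9 and ESC were then 22, 3 and 18. With flanks of 50 kb, 5 were lost from MEF to DAY3, 6 gained from DAY3 to DAY6, 1 lost from DAY6 to DAY9, 5 lost from DAY9 to ESC, and 8 ESC regions were first open at DAY6. With gene starts reaching 5 kb, the Nanog start was open in all 5 stages, through the -4.6 kb region.

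Leaving out each library in turn, MEF to ESC gave 17 to 26 gained and 4 to 7 lost, MEF to DAY3 3 to 5 and 3 to 7, DAY3 to DAY6 2 to 9 and 0 to 1, DAY6 to DAY9 2 to 7 and 0 to 2, and DAY9 to ESC 6 to 14 gained. The first stages of ESC regions ranged over 9 to 16 in MEF, 3 to 8 in DAY3, 2 to 12 in DAY6, 1 to 8 in DAY9 and 7 to 18 in ESC. Regions open by stage ranged over 16 to 24, 16 to 21, 21 to 31, 30 to 35 and 34 to 45. Leaving out a library loosens the rule for its stage. For gained, lost and by-stage counts, the low end of each range is thus the count from all libraries. The 1 region lost from DAY3 to DAY6 came without DAY3 replicate 1, DAY3 replicate 2 or DAY6 replicate 1, and the 2 lost from DAY6 to DAY9 without DAY6 replicate 1. Beyond the looser rule with 1 library left out, the cause of each change was not tested.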
